A study of Mus musculus with 12 samples.

Results

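Spinal cord injury (SCI) was compared with non-injured cord across all expressed genes, in 6 of the 12 RNA-seq libraries of the series. The members are the 3 libraries labelled as spinal cord injury without transplanted cells and the 3 libraries labelled as non-injured, chosen by those labels alone. The tissue of all 6 was mouse spinal cord, the mice of every sample are labelled as C57BL6/cJ hosts, and no agent, transgene or transplant is named for either group. The other 6 libraries, from injured mice that received syngeneic or allogeneic mesenchymal stem cells, also entered the fit. They took part in the low-count filter, the scaling and the estimate of the spread, but not in the group means compared. How and at which level the cord was injured, when it was collected, how long a piece was taken, and the animals' sex and age were not stated in the labels. Nor do they state that samples of 1 group came from different mice, and the p-values therefore reflect only how far these samples vary, which may in part be technical. Of 46078 genes in the deposited count table, 16527 had enough counts to be tested.

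After injury the cord is known to respond in layers. Resident microglia and macrophages that enter from blood clear myelin and dead cells through phagocytosis and the lysosome, and they display antigen and release chemokines. Astrocytes enlarge and form a border around the lesion, fibroblast-like cells from vessel walls and meninges fill it with collagen-rich matrix, and severed axons and the oligodendrocytes that wrapped them are lost. Oligodendrocytes make much of the cholesterol of the cord, because myelin is built from it.

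Levels are given as counts scaled to a common library size (CPM), scaled with TMM (trimmed mean of M values) factors, always in the order of replicates 1, 2 and 3. A gene was called when its adjusted p in edgeR's quasi-likelihood test lay below 0.05, and "rose" and "fell" are used of called genes only. Fold changes are on the log2 scale, SCI over non-injured, with their standard error (SE), and a value followed by an SE is always such a fold change. In bulk tissue, fewer cells of a type and less RNA per cell cannot be told apart.

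Total counts were 15518403 to 26151928, and 5% to 6.4% of counts in SCI and 7.46% to 10.9% in non-injured cord came from mitochondrial genes, so that the groups did not overlap in this share. Other differences lay within groups. Non-injured replicate 3 held the highest of these shares, the highest means of the mature myelin and cholesterol lists and the lowest means of the presynaptic, receptor and ion channel lists among the 6 libraries. Prx, a Schwann cell myelin gene of nerve roots, was at 39.6, 47.7 and 38.5 CPM in SCI and 0.425, 42.9 and 59.1 CPM in non-injured cord. Non-injured replicate 1 therefore held almost none of it. The same library had the lowest means of the collagen, small proteoglycan and meningeal lists. Posterior Hox genes, which mark position along the cord, varied between libraries of both groups. Hoxc11 was at 0.368, 7.8 and 0 CPM in SCI and 0.155, 7.56 and 2.41 CPM in non-injured cord, and Hoxd11 at 0, 8.35 and 0 CPM in SCI and 0.0773, 4.18 and 1.18 CPM in non-injured cord. SCI replicate 2 and non-injured replicate 2 were highest for these, whereas Hoxb9 was low only in non-injured replicate 3 (71.1, 55.1 and 49.4 CPM in SCI and 79.7, 91.4 and 11.2 CPM in non-injured cord). The part of these library differences in the results below was not tested, beyond the values given without single libraries. Markers of other tissues were near 0: Scn10a of sensory ganglion neurons had 1 count in each group, no adipocyte marker had more than 10 counts in a group, and Ckm of skeletal muscle had 10 counts over the SCI libraries against 30 over the controls. The control counts of Ckm all lay in non-injured replicate 3 (0, 0 and 1.54 CPM in non-injured cord). That library also had the highest mean of the muscle list. None of the 5 muscle genes tested was called, and of 4 sensory ganglion genes only Avil, an actin-severing protein, was (1.12, SE 0.35), a call that was lost without any 1 library but non-injured replicate 3. Xist, expressed from the inactive X chromosome, was present in all 6 libraries (697, 729.8 and 867 CPM in SCI and 724, 742 and 750.5 CPM in non-injured cord).

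**Figure D1:**
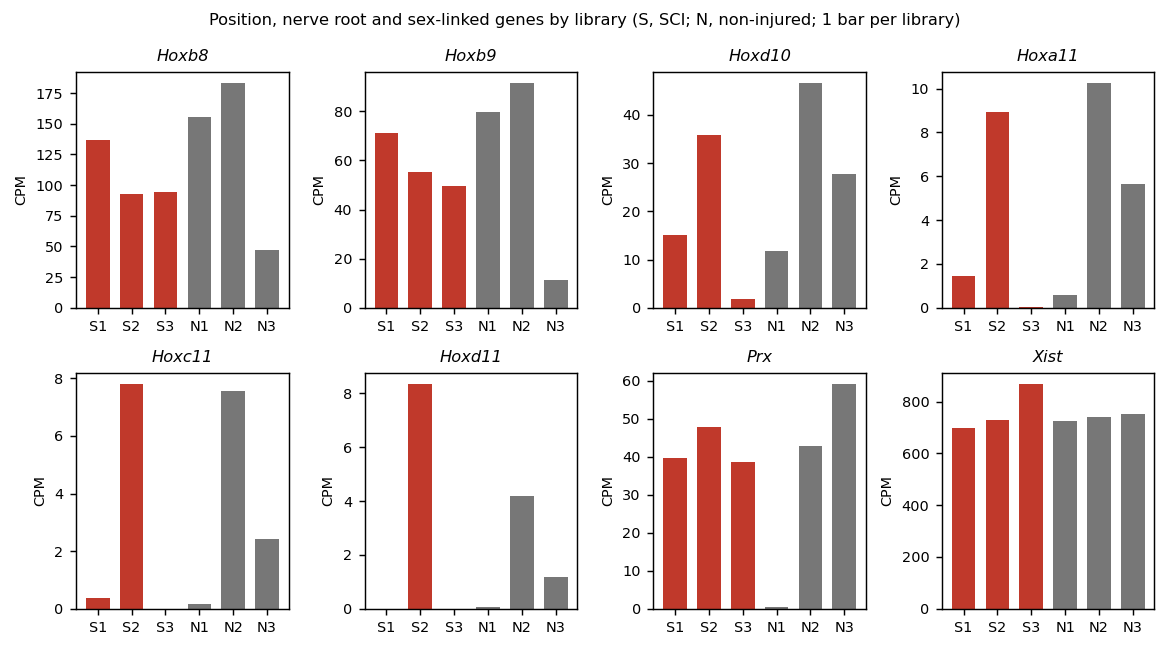
CPM of 6 Hox genes, the Schwann cell myelin gene Prx and Xist in each of the 6 libraries, 1 bar per library from 0 (S1 to S3, SCI; N1 to N3, non-injured). Prx is near 0 in N1 alone, Hoxc11 and Hoxd11 are highest in S2 and N2, and Xist is similar in all 6.

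Differences between injured and non-injured cord were widespread, and the rises were larger than the falls. In edgeR 4266 of 16527 genes (25.8%) passed the threshold, of which 2736 (16.6% of those tested) rose and 1530 (9.26%) fell. The median log2 fold change was 1.29 over genes called higher, -0.56 over genes called lower and 0.01 over all genes tested. At least a 2-fold difference was found in 1666 genes called higher and 125 called lower, and at least a 4-fold difference in 840 and 6. Of the 1072 long non-coding genes tested 62 rose and 61 fell, against 2630 and 1432 of 14821 protein-coding genes. In 4251 of the 4266 called genes the 3 SCI libraries lay wholly above or below the 3 non-injured ones. Passing the threshold makes such a separation likely, so this count is no separate support for the calls. The number called fell to 2336 when SCI replicate 2 was left out, 2747 for SCI replicate 3 and 2757 for non-injured replicate 1. Lower calls numbered 906, 460 and 620 without SCI replicates 1, 2 and 3 and 870 without non-injured replicate 1.

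**Figure D2:**
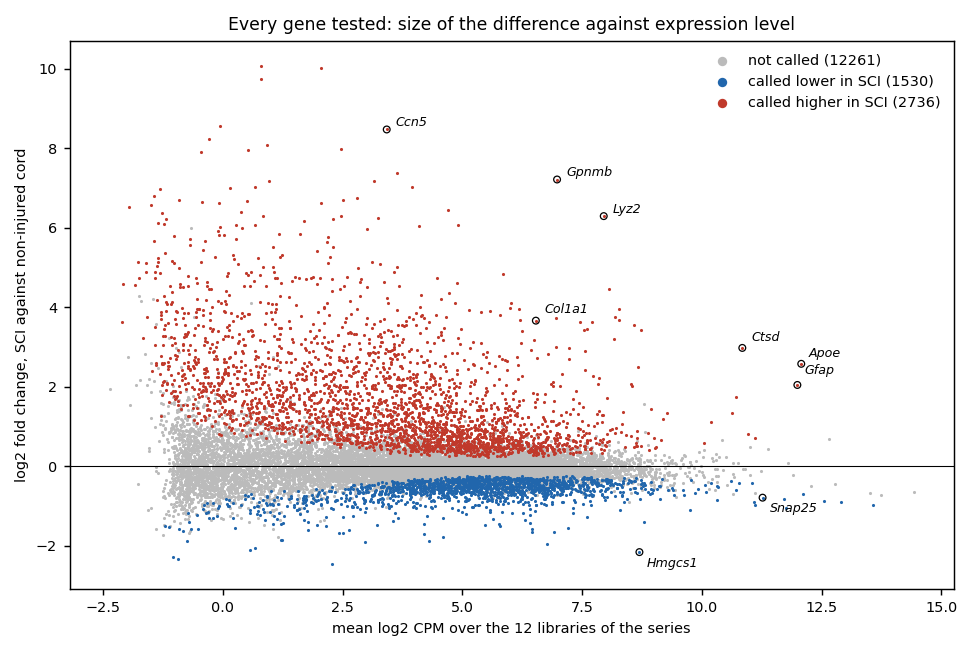
Log2 fold change of SCI against non-injured cord (y axis) over the mean log2 CPM of the 12 libraries (x axis) for the 16527 genes tested, 1 point per gene, red for the 2736 called higher, blue for the 1530 called lower and grey for the rest. The red points reach beyond 8 on the log2 scale at low and middle expression, whereas few blue points lie below -2; Hmgcs1 is the most abundant of these.

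Gains and losses in CPM were ranked only among called genes whose groups did not overlap, so the absence of overlap is no support for the genes named. The largest gains in this ranking were in genes of lipid transport, the astrocyte skeleton and the lysosome. Apoe, the lipid carrier of astrocytes and phagocytes (ENSMUSG00000002985, chromosome 7, 19696109 to 19699188 on GRCm38), was at 7394, 8725 and 5940 CPM in the SCI libraries and 1095, 1138 and 1474 CPM in the non-injured libraries. Its log2 fold change was 2.57 (SE 0.43). Gfap, the intermediate filament protein of astrocytes, was at 5758, 6841 and 6975 CPM in the SCI libraries and 1311, 1151 and 2294 CPM in the non-injured libraries (2.04, SE 0.28), and the filament gene Vim, low in resting astrocytes, at 797, 859 and 843 CPM in SCI and 46.3, 60.2 and 109 CPM in non-injured cord (3.54, SE 0.43). Non-injured replicate 3 was the highest control for both. Lyz2, the lysozyme of macrophages and neutrophils, was detected in all controls and was among the abundant transcripts in SCI. Its level was 1109, 973 and 655 CPM in SCI and 11.8, 9.81 and 13.4 CPM in non-injured cord (6.29, SE 0.71). C3, the central component of complement, was at 747, 878 and 771 CPM in SCI and 38.6, 32.4 and 84.1 CPM in non-injured cord (3.95, SE 0.51). The rest of the 12 largest gains were the proteases Ctsd, Ctsb and Ctss with the saposin precursor Psap, the water channel Aqp4, the lipoprotein Clu and the translation factor Eef1a1, with log2 fold changes of 0.71 (Psap) to 3.43 (Ctss).

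The 12 largest losses in CPM among called genes without overlap fell into myelin, mitochondrial, neuronal and sterol genes. Mobp, a structural protein of central myelin, was at 2884, 2445 and 3459 CPM in SCI and 4989, 3715 and 9676 CPM in non-injured cord. Its log2 fold change was -1.06 (SE 0.35, adjusted p = 0.0444 in edgeR). Non-injured replicate 3 stood far above the other 2 controls, and without it the value was -0.59 with an adjusted p of 0.166. Snap25, which drives the fusion of synaptic vesicles, was at 2145, 1737 and 2009 CPM in SCI and 3735, 3330 and 3146 CPM in non-injured cord (-0.79, SE 0.17), with similar values in all 3 controls. Nefl and Nefm, the light and medium chains of the neurofilaments that fill large axons, fell by 0.91 (SE 0.18) and 0.98 (SE 0.20) on the log2 scale, and the heavy chain Nefh by 0.85 (SE 0.18). Mal of myelin, mt-Nd1, mt-Nd2, mt-Nd4 and mt-Rnr2 of the mitochondrial genome, and Hmgcs1 of sterol synthesis were also among them. Without non-injured replicate 3 mt-Nd1 and mt-Nd2 had adjusted p of 0.0514 and 0.0653. Mbp, myelin basic protein, was at 12917, 10029 and 14349 CPM in SCI and 16400, 12327 and 32912 CPM in non-injured cord, so that the groups overlapped and it was not called (log2 fold change -0.72, SE 0.36, adjusted p = 0.168).

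**Figure D3:**
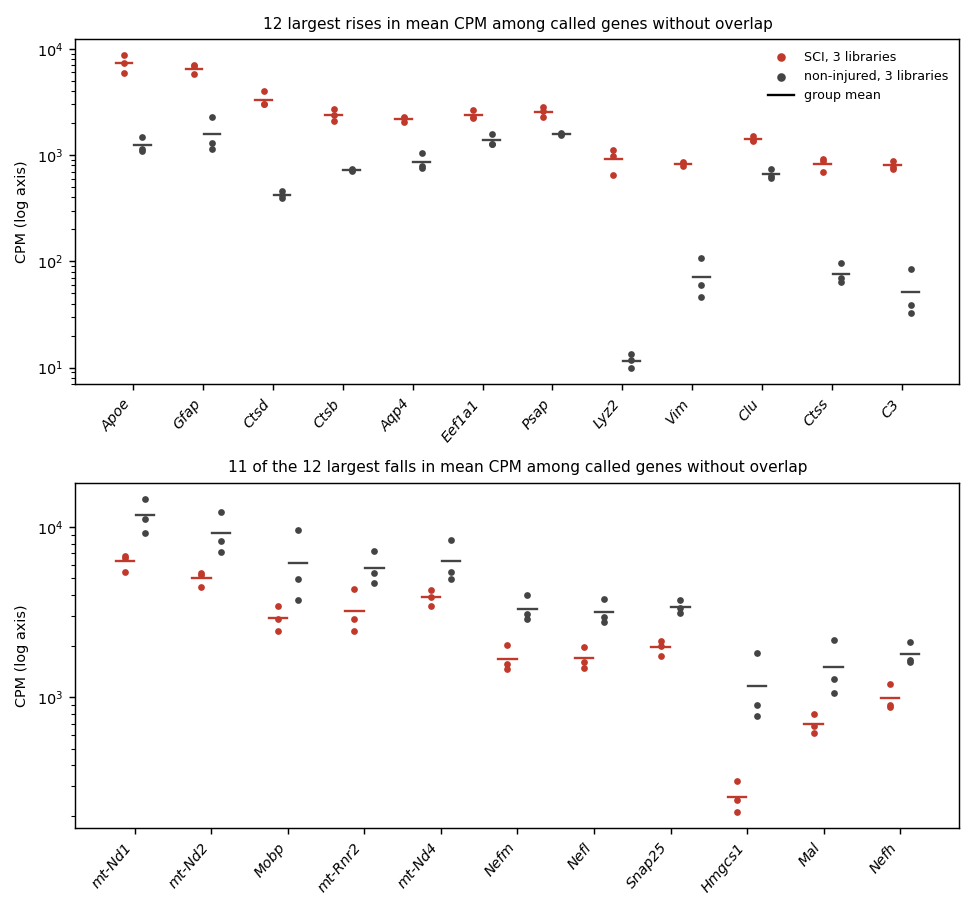
CPM on a log axis, 1 point per library (red for SCI, grey for non-injured) and a bar at each group mean. The genes are the 12 with the largest gain (upper panel) and 11 of the 12 with the largest loss (lower panel) in mean CPM. Only called genes without overlap between groups were ranked. Lyz2 and C3 show the widest gaps between groups (6.29 and 3.95 on the log2 scale), every loss is smaller than these gaps, and the topmost grey point of Mobp and Mal is non-injured replicate 3.

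Gene lists for cell types, pathways and functions were then read against the shares called among all genes, 16.6% higher and 9.26% lower. The counts and medians describe the lists and are not a test of them. Some lists share members, such as Ctsd and Ctsb in the phagocyte and lysosome lists, so their values are not independent.

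**Figure D4:**
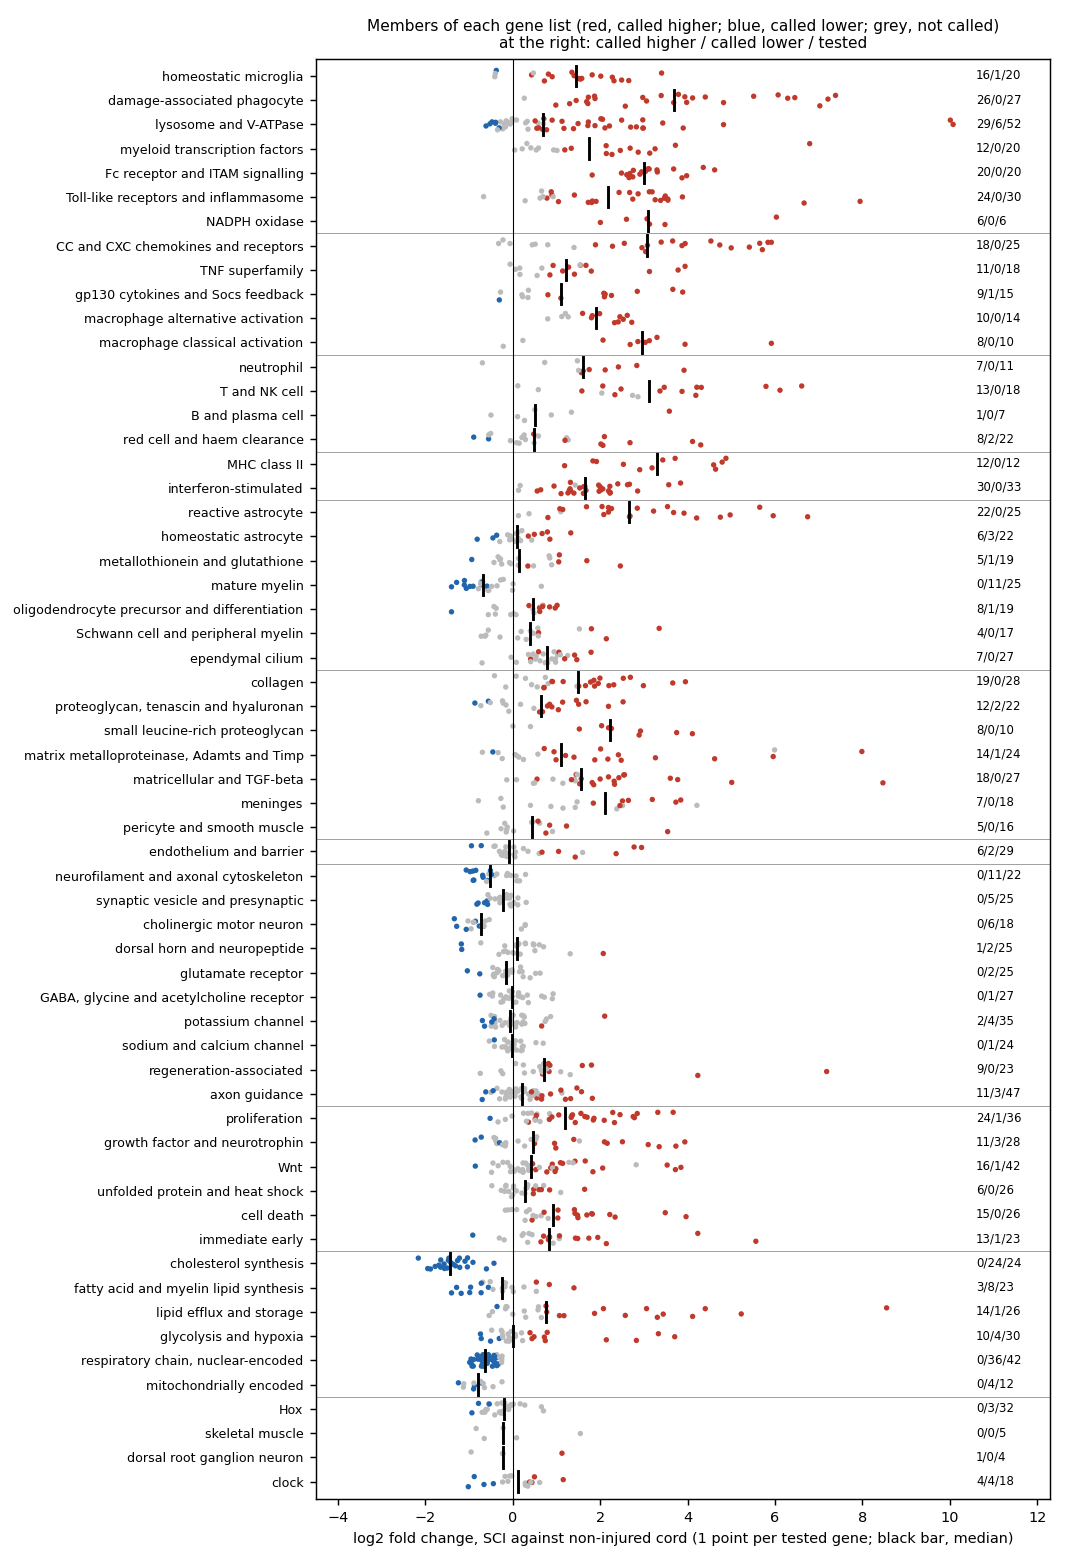
Log2 fold change (x axis) of every tested member of 59 gene lists (rows), red for called higher, blue for called lower and grey for not called, with the list's median as a black bar and the numbers called higher, called lower and tested at the right. Phagocyte, Fc receptor and MHC class II lists lie to the right of 0, cholesterol synthesis and respiratory chain lists to the left, and ion channel and receptor lists around 0.

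Microglia and phagocytes. Of 20 genes of homeostatic microglia, 16 rose and 1 fell, with a median of 1.46. Fcrls, a scavenger receptor-like gene of microglia, was at 136, 184 and 152 CPM in SCI and 13.4, 13.4 and 17.9 CPM in non-injured cord (3.40, SE 0.43), and Olfml3, a secreted microglial protein, at 100.1, 124 and 104 CPM in SCI and 16.5, 16.7 and 19.1 CPM in non-injured cord (2.65, SE 0.31). Aif1, the gene of the microglial marker IBA1, was at 25.6, 25.7 and 22.5 CPM in SCI and 3.75, 3.25 and 5.03 CPM in non-injured cord (2.61, SE 0.26). The purinergic receptor P2ry12, by which surveying microglia sense nucleotides, was at 49.7, 47.5 and 54.7 CPM in SCI and 27.9, 25.8 and 38.5 CPM in non-injured cord (0.72, SE 0.15), a smaller difference than theirs. Among the other rises were Tmem119 at 1.35 (SE 0.20), Cx3cr1, the fractalkine receptor, at 2.31 (SE 0.24), and Sall1 at 0.43 (SE 0.14). The members not called were Slc2a5, Crybb1 and Sparc (-0.41, -0.40 and 0.47; SE 0.19, 0.31 and 0.20). Bin1, a membrane-bending protein made by neurons and oligodendrocytes as well as microglia, fell (-0.38, SE 0.10), a call that was lost without any 1 of the SCI libraries or without non-injured replicate 1.

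The genes that phagocytes switch on in damaged tissue rose as a block: 26 of 27 tested were called higher, none lower, with a median of 3.68. Together they took 1.54% to 2.12% of all counts in SCI libraries and 0.299% to 0.350% in non-injured libraries. Apoe, Ctsd and Ctsb held most of these counts (384351, 174417 and 124650 over the SCI libraries), and Apoe is a gene of astrocytes as well. Cst7, an inhibitor of cysteine proteases, was at 39, 52.9 and 41.1 CPM in SCI and 0.348, 0.187 and 0.205 CPM in non-injured cord (7.38, SE 0.61). Gpnmb, a glycoprotein of lipid-laden phagocytes, was at 655, 799 and 404 CPM in SCI and 3.94, 1.62 and 6.82 CPM in non-injured cord (7.21, SE 1.03). Every SCI library was far above every control for both genes. Itgax and Clec7a, a phagocyte integrin and a glucan receptor, had log2 fold changes of 7.02 (SE 0.53) and 6.45 (SE 0.50). The lipid sensor Trem2 and its adaptor Tyrobp stood at 3.79 (SE 0.43) and 3.68 (SE 0.46). Only Fabp5, a fatty acid carrier found in many cell types, was not called (0.26, SE 0.24).

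The lysosome. Of 52 genes, 29 rose and 6 fell (median 0.69), and the list went from 0.88% to 0.946% of counts in non-injured cord to 1.74% to 2.1% in SCI. Ctsd, the aspartic protease cathepsin D (ENSMUSG00000007891), was at 3002, 3989 and 2992 CPM in the SCI libraries and 422, 394 and 455 CPM in the non-injured libraries (2.97, SE 0.42), and the macrophage membrane protein Cd68 at 147, 186 and 122 CPM in SCI and 5.37, 4.81 and 5.9 CPM in non-injured cord (4.82, SE 0.57). Subunits of the proton pump (V-ATPase) that acidifies lysosomes fell in 6 cases, led by Atp6v1g2, an isoform of neurons (-0.61, SE 0.17), and Atp6v1d (-0.52, SE 0.11). That number was 1 without SCI replicate 2 and 1 without SCI replicate 3. The only pump subunit of the list called higher was Atp6v0d2, the isoform of macrophages and osteoclasts, at 29.7, 26.7 and 14.6 CPM in SCI and 0.0387, 0 and 0 CPM in non-injured cord, with 1230 counts over the SCI libraries against 1 over the controls, a ratio of 1447 (95% counting interval 259 to 57206). Mcoln3, an endolysosomal cation channel, had 378 counts over the SCI libraries against 0 over the controls and was at least 148-fold higher, taking the floor as 3 counts over the group. Its relative Mcoln2 rose (3.90, SE 0.68) and the ubiquitous Mcoln1 had -0.18 without a call.

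Promoters of these genes were searched on both strands, from 250 bases before to 50 bases after the RefSeq start. Windows were available for 39 of the 52 lysosome genes and 127 of the 168 genes of the myeloid lists. The letters TCACGTGA, the palindromic core of the element by which the factor TFEB is known to recognise lysosomal genes, occurred in 6 of 46 windows of the list (13%) and in 320 of all 32851 windows (0.974%). Of the 6 genes that held them 2 rose and 4 were not called, against 29 called higher among the 52 genes of the list. The letters GAGGAAGT, a box of the kind bound by PU.1, the factor encoded by Spi1 that specifies myeloid cells, occurred in 15 of 166 windows of the myeloid lists (9.04%) and in 3.2% of all windows. Of the 15 holders 13 rose and 2 were not called. Most members of every myeloid list rose, from 29 of 52 (lysosome) to 20 of 20 (Fc receptor), so the count of holders says nothing of the letters. The promoters of Ctsd and Mcoln3 are shown, as those of the called members with the largest change that hold the letters. The 250 bases before the start are printed 5′ to 3′ on the gene's strand, from RefSeq on GRCm38.p6, with the match in capitals.
Ctsd (chr7:142387828-142388077, minus strand): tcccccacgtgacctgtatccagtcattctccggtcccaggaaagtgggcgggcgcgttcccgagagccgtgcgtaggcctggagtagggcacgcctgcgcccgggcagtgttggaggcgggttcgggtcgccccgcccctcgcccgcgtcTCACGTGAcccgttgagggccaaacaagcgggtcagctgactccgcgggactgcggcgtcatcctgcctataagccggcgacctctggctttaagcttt
Mcoln3 (chr3:146121541-146121790, plus strand): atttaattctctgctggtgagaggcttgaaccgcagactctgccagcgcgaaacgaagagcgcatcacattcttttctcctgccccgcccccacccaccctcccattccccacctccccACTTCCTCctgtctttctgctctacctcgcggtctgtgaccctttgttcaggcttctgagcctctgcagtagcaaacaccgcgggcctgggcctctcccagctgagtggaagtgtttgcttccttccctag
Counted from the start as 0, the match begins at -99 in Ctsd and at -131 in Mcoln3, where it lies on the opposite strand (printed as ACTTCCTC). A match describes letters and shows no binding.

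Receptors and kinases through which phagocytes read antibody and complement rose without exception. All 20 genes of Fc receptor and ITAM signalling (the tyrosine motif that activating receptors share) were called higher (median 2.99), as they also were without any 1 of the 6 libraries. Fcgr2b, the inhibitory antibody receptor, was at 67.8, 73.5 and 57 CPM in SCI and 2.78, 2.56 and 4.31 CPM in non-injured cord (4.36, SE 0.49), and the kinase Fgr at 11.3, 10.4 and 8.96 CPM in SCI and 0.541, 0.75 and 0.667 CPM in non-injured cord (3.98, SE 0.39). Of 20 myeloid transcription factors 12 rose (median 1.74). Runx1, a regulator of blood cell development, was at 17.2, 20.1 and 18.5 CPM in SCI and 1.24, 1.19 and 1.79 CPM in non-injured cord (3.72, SE 0.41), and Irf8, which microglia need, at 38.9, 53.9 and 39.1 CPM in SCI and 4.72, 4.18 and 4.87 CPM in non-injured cord (3.25, SE 0.33). All 6 genes of the phagocyte NADPH oxidase, which makes superoxide, rose. Cybb, its catalytic membrane subunit, was at 52.8, 64.8 and 48.5 CPM in SCI and 0.541, 0.75 and 1.28 CPM in non-injured cord (6.03, SE 0.57), and its partner Cyba at 55.4, 53 and 40.4 CPM in SCI and 3.29, 4.43 and 5.69 CPM in non-injured cord (3.48, SE 0.47). The cytosolic subunits Ncf1 and Ncf4 and the GTPase Rac2 had log2 fold changes of 2.60, 3.13 and 3.07 (SE 0.31, 0.56 and 0.34).

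The list of Toll-like receptors and the inflammasome also holds their adaptors and interleukin 1 genes. Of its 30 genes 24 rose, with no falls (median 2.17). The endosomal receptors for RNA Tlr7 and Tlr13 were at 27, 38.5 and 34.3 CPM in SCI and 3.25, 1.94 and 3.23 CPM in non-injured cord (3.55, SE 0.44) and at 22.2, 29.3 and 27.7 CPM in SCI and 2.4, 1.69 and 2.62 CPM in non-injured cord (3.55, SE 0.43). Neither gene overlapped between groups. Tlr8 had 294 counts over the SCI libraries against 1 over the controls, a ratio of 346 (95% counting interval 61.6 to 13709), and Il1rn, the natural antagonist of interleukin 1, 207 counts over the SCI libraries against 2 over the controls, a ratio of 122 (95% counting interval 33.3 to 1012). Nlrp3, Pycard and Casp1, which form the inflammasome, rose (2.43, 2.67 and 1.80; SE 0.33, 0.33 and 0.20), as did Gsdmd, the pore protein it cuts (9.07, 10.2 and 8.16 CPM in SCI and 1.89, 1.94 and 3.95 CPM in non-injured cord; 1.82, SE 0.37). Il18, a cytokine the inflammasome matures, had -0.67 (SE 0.23) without a call.

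Chemokines and cytokines. Of 25 chemokine and receptor genes tested 18 rose and none fell (median 3.08). Cxcl10, which draws T cells, was at 13.7, 9.61 and 11.7 CPM in SCI and 0.271, 0.125 and 0.256 CPM in non-injured cord (5.65, SE 0.55), and Cxcl16 at 30.5, 26.9 and 30.3 CPM in SCI and 1.62, 2.87 and 2.56 CPM in non-injured cord (3.66, SE 0.40). Cx3cl1 of neurons, Cxcl12 and Cxcl14 were not called (-0.23, 0.45 and -0.07). Of 18 TNF superfamily genes 11 rose (median 1.21), with both TNF receptors among them: Tnfrsf1b, mainly of immune cells, was at 39.2, 45.5 and 30.6 CPM in SCI and 4.29, 4.18 and 4.72 CPM in non-injured cord (3.13, SE 0.41) and the ubiquitous Tnfrsf1a at 65.4, 72.8 and 65.6 CPM in SCI and 16.5, 19.1 and 23.2 CPM in non-injured cord (1.79, SE 0.25). In the family of cytokines that signal through gp130 9 of 15 genes rose and 1 fell. Osmr, the oncostatin M receptor, was at 55.6, 69.3 and 64.6 CPM in SCI and 6.03, 7.62 and 12.8 CPM in non-injured cord (2.85, SE 0.39), and Socs3, the feedback inhibitor, at 20.6, 25.9 and 50.6 CPM in SCI and 2.01, 3.19 and 2.56 CPM in non-injured cord (3.66, SE 0.41), highest in SCI replicate 3. Cntfr, the receptor of ciliary neurotrophic factor on neurons, fell (-0.31, SE 0.087), a call that was lost without SCI replicate 2 or 3 or non-injured replicate 1 or 2. Lists of classical and alternative macrophage activation both rose. Of 10 classical genes 8 rose (median 2.95; 4 with a minimum count of 50), with Fcgr1, the high-affinity antibody receptor, at 3.30 (SE 0.28) and the co-stimulatory Cd86 at 2.86 (SE 0.36). Of 14 alternative genes 10 rose (median 1.90; 6 without non-injured replicate 1 and 5 with a minimum count of 50), with the mannose receptor Mrc1 at 14.6, 10.5 and 10.9 CPM in SCI and 0.85, 2.31 and 2.41 CPM in non-injured cord (2.72, SE 0.54) and the scavenger receptor Stab1 at 2.45 (SE 0.42). Nos2, the inducible nitric oxide synthase, was not called (0.23, SE 0.33).

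Cells from blood. Neutrophil genes rose in 7 of 11 cases (median 1.61). Csf3r, the receptor of their growth factor, was at 47, 60.5 and 48.9 CPM in SCI and 7.65, 5.56 and 8.56 CPM in non-injured cord (2.84, SE 0.30), and Lcn2, made by neutrophils and by reactive astrocytes, at 39.1, 42.7 and 17.1 CPM in SCI and 0.773, 2.25 and 3.69 CPM in non-injured cord (3.92, SE 1.15, adjusted p = 0.0274). SCI replicate 3 was the lowest of its group for Lcn2, and the call was lost without SCI replicate 1 or 2 or non-injured replicate 1 or 2. The granule genes S100a8 and S100a9 rose from a low level (1.61, SE 0.37 and 1.57, SE 0.39), and the granule gene Mpo was not called (0.73). Ly6g and Elane, markers of mature and immature neutrophils, had too few counts to test. Of 18 T and NK cell genes 13 rose, with a median of 3.12, or 2.88 with 3 of the 4 members without control counts at their bound (the other, Prf1, had only 2 counts over the SCI libraries). Their level was very low: the whole list held 0.00142% to 0.00166% of counts in SCI and 0.000408% to 0.000503% in non-injured cord. Cd3g, which carries the signal of the T cell receptor, had 22 counts over the SCI libraries against 1 over the controls, a ratio of 25.9 (95% counting interval 4.18 to 1068), and Trbc1, a T cell receptor constant chain, 24 counts over the SCI libraries against 0 over the controls, at least 9.41-fold higher. Trac, another constant chain with more counts, had 182 over the SCI libraries against 145 over the controls and was not called (0.58). The low-count filter used all 12 libraries, and Prf1 could be tested only through those outside this comparison. With only the 6 libraries in the filter and fit, 5 genes were called and the median of those tested was 2.35. Of B cell genes only Igkc, the antibody light chain of plasma cells, was called among 7, at 15.6, 1.43 and 1.25 CPM in SCI and 0.58, 0.437 and 0.461 CPM in non-injured cord, high in SCI replicate 1 alone (log2 fold change 3.58, SE 1.04). Without that library it was 1.41 with an adjusted p of 0.202, and the call was also lost without any 1 non-injured library. The other 6 were not called: Jchain, which joins secreted antibodies, was at 1.34 (SE 0.78), Cd79b and Cd79a of the B cell receptor at 0.88 and 0.50, Cr2 at 0.27, the factor Pax5 at 0.11 and Ighm at -0.50.

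Of 22 genes of red cells and of haem and iron handling 8 rose and 2 fell, and the haemoglobin genes were not called. Hba-a1, a globin, was at 71.1, 71.3 and 63.1 CPM in SCI and 38.5, 52.2 and 56.2 CPM in non-injured cord (0.49, SE 0.40), and Hbb-bs at 146, 202 and 175 CPM in SCI and 122, 129 and 176 CPM in non-injured cord (0.29, SE 0.32). The SCI libraries lay just above the controls for the first, and the groups overlapped for the second. Slc11a1, which pumps iron out of the phagosome, was at 39.5, 56.5 and 37.9 CPM in SCI and 2.09, 1.75 and 2.92 CPM in non-injured cord (4.30, SE 0.48), and Cp, the copper oxidase that lets iron leave cells, at 143, 133 and 109 CPM in SCI and 15, 19.4 and 25.8 CPM in non-injured cord (2.68, SE 0.45). Hmox1, which breaks down haem, rose (2.10, SE 0.35), and Fth1, the ferritin heavy chain, was not called (-0.51, SE 0.33). Tfrc, the receptor for iron uptake, fell from 275, 201 and 243 to 140.3, 118 and 128 CPM (-0.90, SE 0.15), and Blvra, which acts after Hmox1 on biliverdin, from 29.2, 28.7 and 28.4 to 21.3, 18.9 and 18.5 CPM (-0.56, SE 0.13). Without SCI replicate 3 Blvra had an adjusted p of 0.0559.

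Antigen display and interferon. MHC class II presentation rose in all of its 12 genes (median 3.31), also without any 1 of the 6 libraries. H2-Aa was at 28.9, 26.8 and 22.4 CPM in SCI and 0.464, 1.87 and 0.513 CPM in non-injured cord (4.88, SE 0.57) and H2-Ab1 at 23.8, 24.4 and 19.7 CPM in SCI and 0.387, 1.81 and 0.718 CPM in non-injured cord (4.64, SE 0.57). These 2 chains form the I-A molecule that shows peptides to CD4+ T cells. Non-injured replicate 2 was the highest control for both, still far below the SCI libraries. Ciita, the master regulator of these genes, had 56 counts over the SCI libraries against 2 over the controls, a ratio of 32.9 (95% counting interval 8.7 to 279). Of 33 interferon-stimulated genes 30 rose and none fell (median 1.65), with 23 called higher without non-injured replicate 1. Gbp2, a guanylate-binding protein (ENSMUSG00000028270), was at 32.3, 30.9 and 28.2 CPM in SCI and 3.75, 3.87 and 6.77 CPM in non-injured cord (2.67, SE 0.33), and Psmb8, a subunit of the immunoproteasome, at 18.6, 20.9 and 15 CPM in SCI and 2.44, 2.5 and 3.9 CPM in non-injured cord (2.62, SE 0.25). The means of the list over the non-injured level were 1.88 in SCI replicates 1 and 2 and 1.37 in replicate 3. The letters GAAANNGAA, the core of the interferon-stimulated response element, were found in 16 of 29 promoter windows of the list (55.2%) and in 8.56% of all windows. Windows were available for 25 of the 33 genes. Of the 16 holders 14 rose and 2 were not called, against 30 of 33 called higher in the whole list. The promoter of Gbp2, the called member with the largest change that holds them, is printed for the 250 bases before its start (RefSeq, GRCm38.p6, match in capitals).
Gbp2 (chr3:142620413-142620662, plus strand): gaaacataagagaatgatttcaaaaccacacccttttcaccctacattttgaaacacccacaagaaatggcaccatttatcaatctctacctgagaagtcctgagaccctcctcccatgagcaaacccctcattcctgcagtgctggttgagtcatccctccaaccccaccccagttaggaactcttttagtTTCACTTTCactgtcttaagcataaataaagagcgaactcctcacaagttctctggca
The match begins at -58 from the start and lies on the opposite strand (TTCACTTTC as printed).

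Astrocytes. Of 25 reactive astrocyte genes 22 rose and none fell (median 2.67), and their share of all counts was 0.833% to 0.991% in SCI and 0.165% to 0.267% in non-injured cord. Tgm1, a cross-linking transglutaminase, was at 17.3, 19.3 and 23 CPM in SCI and 0.193, 0.125 and 0.205 CPM in non-injured cord (6.74, SE 0.46), and Timp1, an inhibitor of matrix proteases, at 29.5, 24.1 and 24.4 CPM in SCI and 0.193, 0.25 and 0.82 CPM in non-injured cord (5.96, SE 0.54). Genes of resting astrocyte function did not move together: 6 of 22 rose and 3 fell, around a median of 0.10. Aqp4, the water channel of astrocyte endfeet, was at 2026, 2218 and 2271 CPM in SCI and 788, 759.7 and 1053 CPM in non-injured cord (1.32, SE 0.22), and its partner Mlc1 at 368, 395 and 386 CPM in SCI and 203, 203 and 233 CPM in non-injured cord (0.85, SE 0.13). Slc7a10 and Slc6a9, which move serine and glycine, fell to 78.3, 69.1 and 73.1 CPM from 136, 121 and 132 (-0.82, SE 0.13) and to 240.2, 246 and 259 from 340.2, 314 and 369 CPM (-0.46, SE 0.11). The glutamate transporter Slc1a2 was not called (0.43, SE 0.21) and Slc1a3 rose (0.79, SE 0.13). Rises numbered 3 without SCI replicate 2 or non-injured replicate 2.

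Metallothionein and glutathione genes rose in 5 of 19 cases and fell in 1 (median 0.13, and 0.23 without non-injured replicate 3; 3 rises without any 1 SCI library or non-injured replicate 2). Slc7a11, which imports cystine for glutathione, was at 129.6, 75.1 and 86.8 CPM in SCI and 14.7, 21.9 and 16.5 CPM in non-injured cord (2.46, SE 0.37), and Gpx8, a peroxidase of the endoplasmic reticulum, rose by 1.69 (SE 0.35). The glutathione transferase Gstm5 fell from 147, 129 and 173 to 82.2, 76.4 and 75.1 CPM (-0.94, SE 0.19).

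Oligodendrocytes. Mature myelin genes were lower: 11 of 25 fell, none rose, with a median of -0.69. The list took 3.13% to 4% of counts in SCI and 4.01%, 4.75% and 8.11% in non-injured cord, the last in replicate 3. Ugt8a, which makes the main myelin galactolipid, was at 303, 315 and 445 CPM in SCI and 714, 614 and 1484 CPM in non-injured cord (-1.40, SE 0.34), and Fa2h, which hydroxylates its fatty acids, at 134, 147 and 178 CPM in SCI and 303, 272 and 545 CPM in non-injured cord (-1.29, SE 0.28). Neither overlapped between groups. Without non-injured replicate 3 the median was -0.33 and 4 genes fell, and the falls numbered 3, 2 and 6 without SCI replicates 1, 2 and 3. Sox10 and Olig2, the lineage factors, were not called (-0.22 and -0.40; SE 0.18 and 0.16). Of 19 genes of oligodendrocyte precursors and their differentiation 8 rose and 1 fell (median 0.46; 5 higher without non-injured replicate 2). Sox6, a factor of precursors, was at 32.5, 40.1 and 41.8 CPM in SCI and 19.2, 18.6 and 18.9 CPM in non-injured cord (1.01, SE 0.22). Pdgfra, also present in fibroblasts, and Cspg4, also present in pericytes, rose by 0.69 (SE 0.14) and 0.84 (SE 0.19). Gpr17, of cells on the way to differentiation, rose by 0.61 (SE 0.18). The single lower call was Ugt8a, which was lost without SCI replicate 2 (adjusted p = 0.0551).

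Schwann cells and ependyma. Of 17 Schwann cell genes 4 rose (median 0.40; 0.20 without non-injured replicate 1 and 0.67 without non-injured replicate 3), and the myelin genes Prx and Pmp2 were not called. Ngfr, the low-affinity neurotrophin receptor that marks Schwann cells away from axons, was at 9.19, 35.4 and 6.92 CPM in SCI and 1.74, 1.94 and 1.38 CPM in non-injured cord (3.35, SE 0.76), with SCI replicate 2 far above the other SCI libraries. Egr2, the master factor of peripheral myelin that macrophages also express, was at 11.4, 12.5 and 9.3 CPM in SCI and 0.773, 3.06 and 3.85 CPM in non-injured cord (2.14, SE 0.51). Of 27 genes of the ependymal cilium, which lines the central canal, 7 rose (median 0.78, and 0.51 without non-injured replicate 3; 11 rises in DESeq2). Rarres2, the precursor of chemerin, was at 23.3, 23.1 and 24.2 CPM in SCI and 5.53, 8.18 and 6.82 CPM in non-injured cord (1.79, SE 0.26), Cfap126 of the cilium at 6.74, 7.52 and 6.01 CPM in SCI and 2.9, 3.25 and 2.77 CPM in non-injured cord (1.19, SE 0.28) and Foxj1, the factor that makes motile cilia, at 43.8, 40.7 and 43 CPM in SCI and 33.3, 30.2 and 32.7 CPM in non-injured cord (0.41, SE 0.089). Non-injured replicate 3 had the lowest mean of the list.

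Fibroblasts and matrix. Collagen genes rose in 19 of 28 cases and fell in none (median 1.49). Col1a1 and Col3a1, of fibrillar collagens, were at 394, 260.3 and 250.1 CPM in SCI and 8.62, 32.1 and 31.3 CPM in non-injured cord (3.66, SE 0.89) and at 369, 218 and 216 CPM in SCI and 7.5, 20.9 and 23.8 CPM in non-injured cord (3.95, SE 0.93). SCI replicate 1 was highest and non-injured replicate 1 lowest in both, and the groups did not overlap. Of basement membrane collagens Col4a1 and Col4a2 were not called (0.81 and 0.29; SE 0.31 and 0.20), and Col4a4, Col4a5, Col15a1 and Col18a1 rose (1.51, 1.15, 1.78 and 2.53). Of 10 small leucine-rich proteoglycans, which bind collagen fibrils, 8 rose (median 2.22; 5 without non-injured replicate 1), with Fmod at 209, 159 and 172 CPM in SCI and 7.34, 12.1 and 12 CPM in non-injured cord (4.11, SE 0.57) and Lum at 60.0, 44 and 33.3 CPM in SCI and 1.28, 4.37 and 4.82 CPM in non-injured cord (3.75, SE 0.87). Of 22 genes of proteoglycans, tenascins and hyaluronan 12 rose and 2 fell. Cd44, the hyaluronan receptor, was at 119, 113 and 142 CPM in SCI and 17.6, 18.9 and 45.7 CPM in non-injured cord (2.19, SE 0.38). Hapln1 and Bcan, a link protein and brevican of the net around neurons, fell from 38.6, 25 and 24 to 18.9, 12 and 17.2 CPM (-0.87, SE 0.25) and from 379.9, 330.2 and 346 to 252, 219 and 245 CPM (-0.56, SE 0.13). The call of Hapln1 was lost without SCI replicate 2 or 3 or non-injured replicate 1. Other genes of these nets, Acan, Ncan, Hapln4 and Tnr, were not called (-0.24, -0.22, -0.52 and 0.48).

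Matrix proteases and their inhibitors rose in 14 of 24 cases, with 1 fall (median 1.10). Mmp12, macrophage elastase, was at 22.2, 27.2 and 29.3 CPM in SCI and 0.155, 0 and 0.103 CPM in non-injured cord (7.99, SE 0.75), while the membrane protease Mmp15 fell (-0.46, SE 0.13) in a call that was lost without SCI replicate 2 or 3 or non-injured replicate 1 or 3. Mmp9 was not called (-0.70, SE 0.24). Matricellular and TGF-beta genes rose in 18 of 27 cases (median 1.56). Ccn5 had the largest fold change of the lists among genes with more than 3 control counts, at 39.6, 50.4 and 39 CPM in SCI and 0.0387, 0.125 and 0.205 CPM in non-injured cord (8.47, SE 0.77). Postn, periostin of fibroblasts, was at 54.3, 42.2 and 33.1 CPM in SCI and 1.7, 0.687 and 1.49 CPM in non-injured cord (5.01, SE 0.74). Of 18 meningeal genes 7 rose (median 2.11; 3 without non-injured replicate 1 and 11 in DESeq2). Igf2 was at 671, 219.9 and 254 CPM in SCI and 22.4, 26.9 and 37.1 CPM in non-injured cord (3.73, SE 0.88), highest in SCI replicate 1, and Slc6a13, a transporter of meningeal cells, at 16.7, 12.7 and 12.8 CPM in SCI and 1.39, 3.44 and 2.05 CPM in non-injured cord (2.64, SE 0.67; adjusted p = 0.0612 without non-injured replicate 1). Pericyte and smooth muscle genes rose in 5 of 16 cases (median 0.45, and 0.051 without non-injured replicate 1; 2 rises without SCI replicate 1 or non-injured replicate 1, 3 without SCI replicate 2 or non-injured replicate 2), led by Anpep (47.1, 43.8 and 24.7 CPM in SCI and 2.71, 3.75 and 3.54 CPM in non-injured cord; 3.54, SE 0.76) and Vtn (1.23, SE 0.35; lost without SCI replicate 1, non-injured replicate 1 or non-injured replicate 2). The other rises were the pericyte genes Pdgfrb, Cspg4 and Notch3 (0.76, 0.84 and 0.58), and the pericyte markers Rgs5, Kcnj8 and Abcc9 were not called (-0.27, 0.46 and -0.13).

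Vessels. Of 29 genes of endothelium and the barrier 6 rose and 2 fell (median -0.09; 0.15 without non-injured replicate 3). Pecam1, an adhesion protein of all endothelium, was at 43, 38.6 and 39.1 CPM in SCI and 31.8, 30.7 and 56.3 CPM in non-injured cord (0.02, SE 0.22), and Cldn5, of the blood-brain barrier, had 0.05 (SE 0.22), and neither was called. Icam1, which captures leukocytes, was at 20.3, 22.8 and 21.9 CPM in SCI and 2.36, 2.56 and 3.54 CPM in non-injured cord (2.95, SE 0.31), and Vwf, the clotting carrier protein, at 73.7, 77.9 and 59.3 CPM in SCI and 15.4, 20.9 and 42.2 CPM in non-injured cord (1.43, SE 0.33). Apln, a peptide of sprouting vessels, fell from 84, 82.9 and 98.4 to 50.1, 42.3 and 45.2 CPM (-0.95, SE 0.12), and Vegfa, the main angiogenic factor, from 75.1, 76.1 and 71.7 to 44.3, 40.1 and 50.7 CPM (-0.72, SE 0.14).

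Neurons. Genes of the axonal skeleton fell in 11 of 22 cases and rose in none (median -0.53; 6 falls without SCI replicate 2 and 6 without SCI replicate 3). The list held 1.93% to 1.98% of counts in non-injured cord and 1.39% to 1.48% in SCI. Nefm was at 2023, 1471 and 1561 CPM in SCI and 3074, 2896 and 3995 CPM in non-injured cord and Nefl at 1968, 1493 and 1622 CPM in SCI and 2977, 2787 and 3774 CPM in non-injured cord. Both were named above under a rule that required no overlap between groups. Prph, peripherin of motor and sensory neurons, was at 74.3, 72.5 and 42.2 CPM in SCI and 82.6, 113 and 200.2 CPM in non-injured cord (-1.07, SE 0.32). Its call was lost without SCI replicate 2 or 3 or non-injured replicate 3 (-0.65, adjusted p = 0.105, without the last). Map2 and Mapt, which stabilise dendritic and axonal microtubules, were not called (0.09 and -0.05; SE 0.24 and 0.14). Presynaptic genes fell in 5 of 25 cases (median -0.23; 2 falls without SCI replicate 2 or 3 or non-injured replicate 1), with Rab3a, a vesicle GTPase, at 309, 256 and 257 CPM in SCI and 499, 475 and 479.8 CPM in non-injured cord (-0.82, SE 0.16). Syt1, the calcium sensor of release, overlapped between groups, and non-injured replicate 3 stood far below the other controls (122, 149 and 113 CPM in SCI and 145, 180.0 and 30.0 CPM in non-injured cord; 0.11, SE 0.54). Without non-injured replicates 1, 2 and 3 the presynaptic median was -0.02, -0.10 and -0.48, and 7 genes fell without the third of them.

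Cholinergic motor neuron genes fell in 6 of 18 cases (median -0.73). Chat, the enzyme that makes acetylcholine, was at 24.6, 23.8 and 15.6 CPM in SCI and 33.6, 35.5 and 32.7 CPM in non-injured cord (-0.67, SE 0.18), and Chodl, of fast motor neurons, at 44.7, 31.9 and 25.3 CPM in SCI and 64.4, 81.4 and 112 CPM in non-injured cord (-1.34, SE 0.33). Vipr2, a peptide receptor, was at 5.7, 3.95 and 3.12 CPM in SCI and 7.65, 8.81 and 14.7 CPM in non-injured cord (-1.29, SE 0.40). SCI replicate 3 was lowest for all 3. Leaving out SCI replicate 3 gave 0 falls, SCI replicate 2 gave 2, non-injured replicate 3 gave 3, and DESeq2 gave 10. Dorsal horn and neuropeptide genes had a median of 0.10, with 1 rise and 2 falls among 25. The sign of that median turned without non-injured replicate 3 (-0.35), and without the other single libraries it was 0.01 to 0.51. Adcyap1, the neuropeptide PACAP, was at 66.7, 71.4 and 68.2 CPM in SCI and 19.1, 26.7 and 3.54 CPM in non-injured cord (2.07, SE 0.51), and the calcium buffer Calb2 fell from 276, 205 and 331 to 168, 81.4 and 109.7 CPM (-1.18, SE 0.30). No gene of the list was called lower without SCI replicate 2 or without SCI replicate 3.

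Receptors and channels of neurons stood near the median of all genes, with few calls in either direction. Glutamate receptors had 0 rises and 2 falls of 25 (median -0.16), receptors for GABA, glycine and acetylcholine 0 and 1 of 27 (median -0.02), potassium channels 2 and 4 of 35 (median -0.06), and sodium and calcium channels 0 and 1 of 24 (median -0.01). Glrb, the anchoring subunit of the glycine receptor, was at 278, 242 and 269 CPM in SCI and 468, 417 and 442 CPM in non-injured cord (-0.75, SE 0.14), without overlap. Grin3b and Grin2c, subunits of the NMDA receptor, fell by 1.04 (SE 0.33) and 0.76 (SE 0.16), and Kcnab1, a subunit of axonal potassium channels, by 0.70 (SE 0.17). Kcnn4, a calcium-activated channel of immune cells, rose from 0.58, 0.375 and 0.205 to 1.9, 1.48 and 1.81 CPM (2.10, SE 0.40), and Kcnn3 by 0.66 (SE 0.22). The falls numbered 1 for glutamate receptors without any 1 library except non-injured replicate 3, 3 for inhibitory and acetylcholine receptors and 3 for sodium and calcium channels without that replicate, and 1 for potassium channels without SCI replicate 2 or 3. The calls of Grin3b and Kcnn3 were lost without any 1 of the 6 libraries and Kcnab1's without SCI replicate 2 or 3. Non-injured replicate 3 was the lowest library for the mean of each of these 4 lists, and without it the medians were -0.43, -0.33, -0.31 and -0.30. Without non-injured replicate 1 they were -0.06, 0.08, 0.12 and 0.11, and without non-injured replicate 2 -0.005, 0.15, 0.07 and 0.18.

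Regrowth. Of 23 regeneration-associated genes 9 rose and none fell (median 0.70; 5 without SCI replicate 1 or non-injured replicate 1). Sprr1a, a protein that growing axons induce, was at 35.7, 30.3 and 35.8 CPM in SCI and 0.271, 0.187 and 0.205 CPM in non-injured cord (7.18, SE 0.57), and Atf3, the stress transcription factor of injured neurons, at 26.7, 31.8 and 23.8 CPM in SCI and 0.812, 0.75 and 2.82 CPM in non-injured cord (4.23, SE 0.56). Growth cone genes Gap43 and Basp1 were not called (0.67 and -0.27; SE 0.24 and 0.15). Of 47 axon guidance genes 11 rose and 3 fell (median 0.20, and 0.36 and 0.13 without non-injured replicates 1 and 3; 5, 5 and 7 rises without SCI replicate 2, non-injured replicate 1 and non-injured replicate 2, and 1 fall without SCI replicate 1 or 2). The semaphorin receptors Plxnb2 and Plxnc1 were at 152, 185 and 151 CPM in SCI and 45.5, 52 and 40.9 CPM in non-injured cord (1.82, SE 0.23) and at 27.6, 34.2 and 24.7 CPM in SCI and 11.7, 14.4 and 3.08 CPM in non-injured cord (1.57, SE 0.48). Efnb3, a repulsive ligand on myelin, fell from 268, 260.0 and 424 to 177, 196 and 212 CPM (-0.70, SE 0.20), and the netrin receptor Unc5b by 0.62 (SE 0.15). Rtn4, which encodes the growth inhibitor Nogo, and its receptor gene Rtn4r were not called (-0.03 and -0.14). The calls of Plxnc1 and Efnb3 were each lost without SCI replicate 1 or 2, and also without SCI replicate 3 or non-injured replicate 1 (Plxnc1) or without non-injured replicate 3 (Efnb3).

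**Figure D5:**
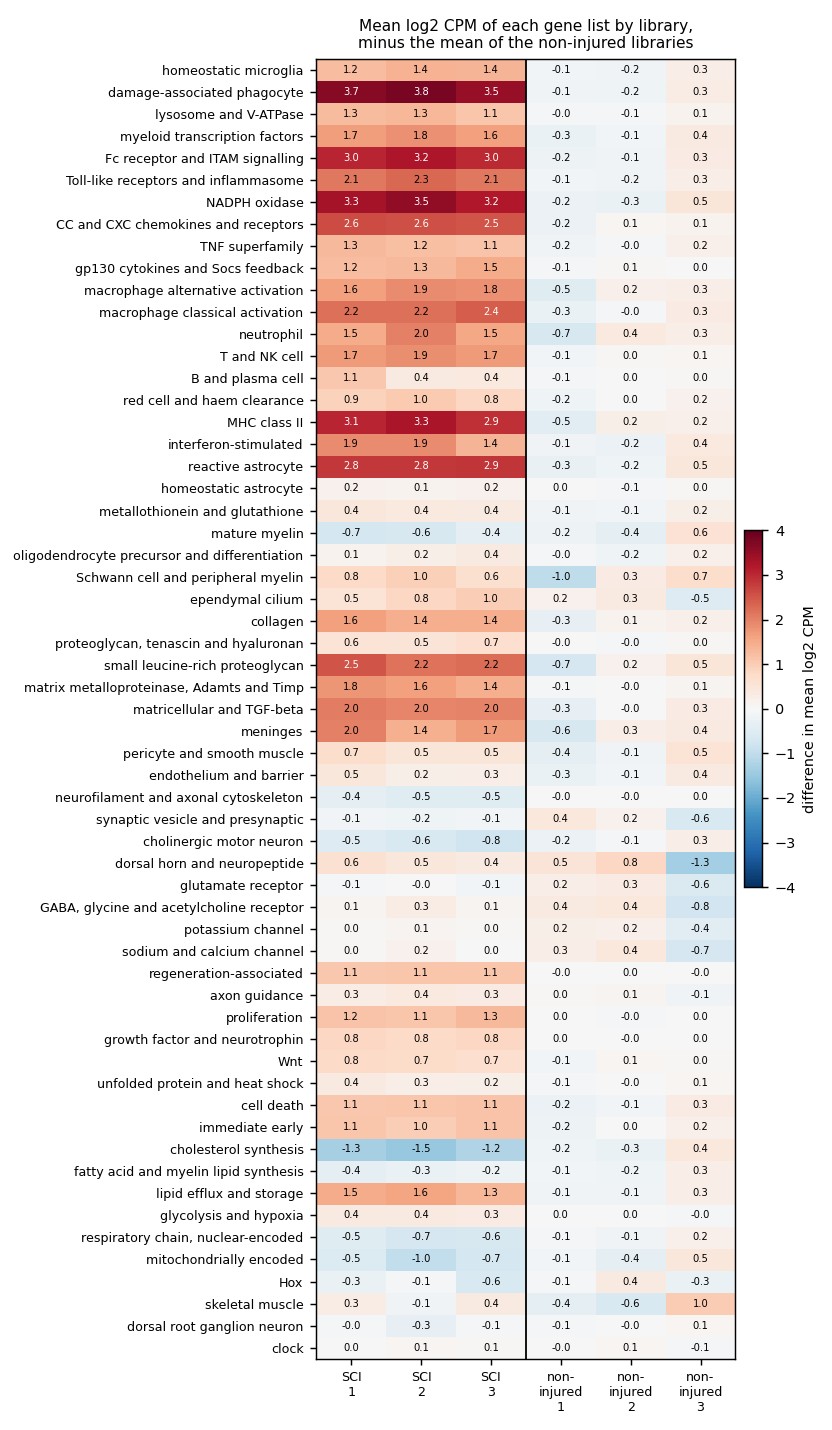
Mean log2 CPM of the tested members of each of 59 gene lists (rows) in each of the 6 libraries (columns), minus the mean of the non-injured libraries, printed in each cell and coloured from blue (lower) to red (higher). The 3 SCI columns are alike in most rows (3.5 to 3.8 for damage-associated phagocyte genes), whereas the non-injured 3 column stands apart in rows such as dorsal horn (-1.3) and mature myelin (0.6).

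Growth and stress. Proliferation genes rose in 24 of 36 cases and fell in 1 (median 1.19). Top2a, which untangles DNA before division, was at 14.2, 12.2 and 16.8 CPM in SCI and 1.89, 1.62 and 0.769 CPM in non-injured cord (3.32, SE 0.35), and the cycling marker Mki67 at 12.4, 13.9 and 17.7 CPM in SCI and 3.05, 3.12 and 1.85 CPM in non-injured cord (2.45, SE 0.35). Among the rises were the mitotic kinase Aurkb (3.67, SE 0.64) and the ubiquitin ligase subunit Ube2c (2.85, SE 0.42). The mitotic genes Aurka, Bub1b and Birc5 were not called (0.31, 0.35 and 0.62), nor was Pcna, the replication clamp (0.24, SE 0.16), and Ccne1, the cyclin of S-phase entry, fell (-0.52, SE 0.16), a call that was lost without any 1 library but non-injured replicate 3. Of 28 growth factor genes 11 rose and 3 fell (median 0.46). Igf1, which phagocytes secrete, was at 108, 82.9 and 75.6 CPM in SCI and 6.38, 6.43 and 4.56 CPM in non-injured cord (3.93, SE 0.58). Fgf9, made by neurons and glia, fell from 59.3, 45.9 and 46.9 to 33.5, 23.1 and 27.2 CPM (-0.86, SE 0.18). Of 42 Wnt genes 16 rose and 1 fell (median 0.41; 8 rises without non-injured replicate 1). The secreted antagonist Sfrp4 was at 24, 15.8 and 11.7 CPM in SCI and 0.812, 1.19 and 1.95 CPM in non-injured cord (3.72, SE 0.86) and the ligand Wnt4 at 5.82, 9.17 and 7.65 CPM in SCI and 1.08, 1.75 and 2.67 CPM in non-injured cord (2.06, SE 0.40), while Rspo2, which amplifies Wnt signals, fell by 0.86 (SE 0.21), a call that was lost without SCI replicate 2 or 3. The target genes Axin2 and Lef1 were not called (0.36 and -0.05; SE 0.16 and 0.21).

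Genes of cell death rose in 15 of 26 cases and fell in none (median 0.92). Among them were genes of inflammatory routes. Casp12 was at 25.6, 23.4 and 26.3 CPM in SCI and 3.29, 4.43 and 8.51 CPM in non-injured cord (2.22, SE 0.35), and Ripk3 and Mlkl, the kinase and pore protein of necroptosis, rose by 2.34 (SE 0.38) and 1.49 (SE 0.32). In the mitochondrial route Bax and Bcl2l1 were not called (0.09 and -0.02), and Bcl2 and Bcl2l11 rose (1.03 and 1.48; SE 0.15 and 0.26). Genes of protein folding stress stood near the background, with 6 of 26 higher (median 0.29; 3 without any 1 SCI library or without non-injured replicate 1 or 2), among them the sensor Ern1 (0.84, SE 0.16) and the chaperone enzyme Pdia4 (0.65, SE 0.16). Immediate early genes rose in 13 of 23 cases (median 0.83), with Fosl1 at 137 counts over the SCI libraries against 3 over the controls, a ratio of 53.7 (95% counting interval 18 to 264), and Atf3 the largest, whereas Npas4, an activity-dependent gene specific to neurons, fell (1.78, 1.21 and 1.76 CPM in SCI and 2.59, 3.75 and 2.67 CPM in non-injured cord; -0.92, SE 0.31; adjusted p = 0.048). Its call was lost without any 1 of the 6 libraries.

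Lipid metabolism. The cholesterol pathway was the list with the most uniform fall: 24 of 24 tested genes were lower, with a median of -1.44, and their share of counts was 0.115% to 0.148% in SCI and 0.305% to 0.468% in non-injured cord. Between 22 and 23 were called lower without any 1 library, and without non-injured replicate 3, the highest control, the median was -1.20. Hmgcs1, which makes HMG-CoA (ENSMUSG00000093930, chromosome 13, 119690379 to 119708260, plus strand), was at 249, 211 and 321 CPM in the SCI libraries and 898, 778 and 1824 CPM in the non-injured libraries (-2.16, SE 0.38, adjusted p = 0.0023). Replicate 3 was the highest of the controls. Msmo1, a later sterol oxidase, was at 68.1, 60.3 and 82.8 CPM in SCI and 229, 202 and 384 CPM in non-injured cord (-1.95, SE 0.33). The falls took in Sqle, which opens the sterol branch (-1.57, SE 0.27), the late enzyme Dhcr7 (-1.48, SE 0.24) and Srebf2, the factor that drives the pathway (-0.43, SE 0.13). Srebf1, its relative for fatty acid genes, rose instead, from 65.6, 65 and 53 to 149, 198 and 137 CPM (1.40, SE 0.20).

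The letters TCACNCCAC of the sterol response element, through which SREBP factors act, were found in 1 of 20 promoter windows of the cholesterol list (5%) and in 1.24% of all windows. The window was that of Hmgcs1, printed for the 250 bases before its start (RefSeq, GRCm38.p6, match in capitals, beginning at -137 from the start).
Hmgcs1 (chr13:119690101-119690350, plus strand): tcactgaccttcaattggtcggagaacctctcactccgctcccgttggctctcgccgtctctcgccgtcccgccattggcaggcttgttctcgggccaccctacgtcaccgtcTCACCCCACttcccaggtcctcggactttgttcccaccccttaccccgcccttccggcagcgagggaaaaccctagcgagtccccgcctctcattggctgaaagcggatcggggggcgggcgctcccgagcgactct
Only 17 of the 24 tested genes of the list had a window. Degenerate forms of the element were not searched, so the absence of the letters from the other windows says nothing of the factor.

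Other lipid genes split. In the list of fatty acid and myelin lipid synthesis 3 of 23 rose and 8 fell (median -0.24; 5, 4 and 5 falls without SCI replicate 1, SCI replicate 2 and non-injured replicate 3). Besides Srebf1, the desaturase Fads2 rose (151, 174 and 149 CPM in SCI and 92, 99.1 and 74.7 CPM in non-injured cord; 0.83, SE 0.16), and Ugt8a and Fa2h were the largest falls. Genes of lipid efflux and storage rose in 14 of 26 cases and fell in 1 (median 0.77), from 0.294% to 0.394% of counts in non-injured cord to 0.932% to 1.33% in SCI. Ch25h, which makes 25-hydroxycholesterol, was at 9.44, 11.8 and 13.3 CPM in SCI and 0.155, 0.562 and 0.974 CPM in non-injured cord (4.40, SE 0.54), and Cd36, a lipid scavenger receptor, at 14.2, 11.9 and 9.58 CPM in SCI and 0.773, 0.687 and 0.564 CPM in non-injured cord (4.11, SE 0.78). Abca1, which exports cholesterol to Apoe, rose by 3.44 (SE 0.38), and Apoc4 had 133 counts over the SCI libraries against 0 over the controls, at least 52.2-fold higher. Acat1, a mitochondrial thiolase, fell (-0.36, SE 0.10), a call that was lost without SCI replicate 2 or 3 or non-injured replicate 1.

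Energy metabolism. Nuclear genes of the respiratory chain fell in 36 of 42 cases and rose in none (median -0.63). Ndufa4 and Cox6c were at 176, 139 and 155 CPM in SCI and 289.6, 251 and 390.0 CPM in non-injured cord (-0.99, SE 0.22) and at 160.2, 125 and 139 CPM in SCI and 229, 216 and 379 CPM in non-injured cord (-0.96, SE 0.24). The count was 11 without SCI replicate 2 and 13 without SCI replicate 3, while the median without non-injured replicate 3 was -0.50. Of 12 mitochondrially encoded genes 4 fell (median -0.81; -0.48 without non-injured replicate 3), with mt-Nd1 at 6795, 5451 and 6596 CPM in SCI and 11177, 9272 and 14666 CPM in non-injured cord (-0.90, SE 0.24) and mt-Nd2 at 5391, 4452 and 5218 CPM in SCI and 8290, 7112 and 12291 CPM in non-injured cord (-0.88, SE 0.25). That count was 0 without SCI replicate 2, SCI replicate 3 or non-injured replicate 3, 2 without non-injured replicate 1, 7 without non-injured replicate 2 and 9 in DESeq2. Glycolysis and hypoxia genes had a median of 0.00, with 10 rises and 4 falls among 30 (2 falls without SCI replicate 2, SCI replicate 3 or non-injured replicate 1, and 7 in DESeq2). Hexokinases 2 and 3 rose: Hk2 was at 21.3, 24.4 and 22.1 CPM in SCI and 2.74, 2.75 and 4.05 CPM in non-injured cord (2.83, SE 0.27), and Hk3, of myeloid cells, at 12.7, 14.6 and 10.4 CPM in SCI and 1.12, 1.06 and 1.54 CPM in non-injured cord (3.33, SE 0.35). The hypoxia targets did not share a direction, since Car9 had 26 counts over the SCI libraries against 2 over the controls, a ratio of 15.3 (95% counting interval 3.83 to 133), while Bnip3 fell from 149, 135 and 178 to 98.8, 88.7 and 89.1 CPM (-0.74, SE 0.14) and Vegfa fell as given above.

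Position and clock. Of 32 Hox genes tested 3 fell and none rose (median -0.21, and -0.10, -0.11 and -0.42 without non-injured replicates 1, 2 and 3 and -0.12 without SCI replicate 2): Hoxd9 was at 23.1, 18.3 and 19.1 CPM in SCI and 33.7, 32 and 38.4 CPM in non-injured cord (-0.79, SE 0.14), Hoxd8 at 56.2, 54.3 and 52.2 CPM in SCI and 74, 71.8 and 90.8 CPM in non-injured cord (-0.54, SE 0.12) and Hoxd3 at 2.7, 2.36 and 2.38 CPM in SCI and 4.68, 4.43 and 5.13 CPM in non-injured cord (-0.94, SE 0.20). The other 29 were not called and lay between -0.70 and 0.70 on the log2 scale, and 5 were called lower without non-injured replicate 3 and 6 in DESeq2. Of 18 clock genes 4 rose and 4 fell (2 rises without SCI replicate 2 or non-injured replicate 2). Npas2, an activator of the clock, was at 17.7, 19.3 and 17.2 CPM in SCI and 9.97, 8.18 and 6.15 CPM in non-injured cord (1.15, SE 0.20), and its output factors Dbp and Ciart were lower, at 20.6, 21.2 and 21.4 CPM in SCI and 26, 51 and 51.4 CPM in non-injured cord (-1.02, SE 0.21) and 5.51, 5.55 and 5.56 CPM in SCI and 9.7, 8.74 and 12.2 CPM in non-injured cord (-0.88, SE 0.24). Dbp in non-injured replicate 1 was nearer to the SCI libraries than to the other controls, and the call of Ciart was lost without any 1 SCI library or without non-injured replicate 3. The hour of tissue collection is not stated in the labels, and its part was not tested.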

How the data were processed

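Gene counts of 12 libraries were deposited by the authors as 1 table of raw whole-number counts, not normalized. Per the labels' protocols, cord tissue was mechanically dissociated and RNA was purified on columns with DNase before stranded poly(A) library preparation. Tools listed in the submitters' processing notes are featureCounts 1.5.1, StringTie 1.3.3, STAR 2.5.1 (build GRCm38), Picard, Trim Galore 0.4.1 and FastQC 0.11.5. Which annotation release was used, and whether counting used strand, is not given in the sources read. Gene positions are from GENCODE M21 (45229 of 46078 identifiers matched).

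Counts were filtered (filterByExpr, minimum count 10, minimum total 15), scaled by TMM and tested in edgeR 4.0.16 (R 4.3.3) with the robust quasi-likelihood test over all 12 libraries, 1 mean per group, 8 residual degrees of freedom and Benjamini-Hochberg adjustment. The procedure was tested on simulated data. Alternatives were RLE factors, no scaling beyond totals, no filter, a minimum count of 50, the 6 libraries alone, DESeq2 1.42.0, limma-voom 3.58.1, mitochondrial genes left out and each library left out.

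The comparison and the 60 gene lists were chosen with earlier results of these data known. Genes were named by rule: the 12 largest called rises and falls in mean CPM without overlap between groups, the 2 called members of each list with the largest fold change at a mean log2 CPM of at least 2, up to 2 members called against the list's direction, every member of lists with at most 8 tested genes, and tissue checks. Not all genes this rule selects are printed, and some are not reported here. Genes named beyond it were chosen after their values were seen. Genes sharing exons with a gene on the other strand (among them Hmgcs1, Gbp2, Nefl, Nefm, Mmp12, Cx3cr1, P2ry12, Psmb8 and Cp) or on the same strand (Ctsd, Igf2, Col3a1, Top2a and the mt-Nd genes) are uncertain to that extent, as are near-identical families such as globins, MHC, Gbp and Fc receptor genes. Counting intervals and floors cover counting error only.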

Additional observations from a re-analysis of the deposited data

How the results depend on the processing

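No paired analysis was possible because the labels give no replicate numbers that the groups share. Over all settings except those that leave out 1 library, the number of genes called was 3724 to 4864, with the fewest at a minimum count of 50 and the most in DESeq2, and 58.4% to 73.7% of calls were higher. Leaving out each library in turn gave 2336 to 3974 calls, 1876 to 2662 of them higher and 460 to 1312 lower; those fits have fewer samples. Of 196 named genes, 152 were called, 36 lost their call under at least 1 alternative, 6 gained one and 19 changed sign, none of these 19 being called. By setting, the sign changed under limma-voom for Acta1 (0.12), Hoxb9 (0.42) and Hoxd11 (-1.68), under RLE factors and DESeq2 for Pecam1 (-0.004 in both) and Hoxb3 (-0.013 in both), without a filter for Pecam1 (-0.026), Xist (-0.003) and Hoxb3 (-0.044), and with library totals only for Hoxb4 (0.004). When single libraries were left out, the ranges were -0.67 to 0.98 for Acta1, -0.43 to 2.13 for Tnnt3, -0.11 to 0.46 for Pax5, -0.13 to 0.35 for Pecam1 and -0.036 to 0.11 for Xist. For Hox genes they were -2.84 to 0.20 (Hoxa11), -0.39 to 0.11 (Hoxb2), -0.32 to 0.26 (Hoxb3), -0.24 to 0.07 (Hoxb4), -0.52 to 0.11 (Hoxb6), -0.55 to 0.10 (Hoxb7), -0.66 to 0.084 (Hoxb8), -0.56 to 0.36 (Hoxb9), -0.29 to 0.015 (Hoxc5), -0.33 to 0.13 (Hoxc6), -0.32 to 0.11 (Hoxc8), -4.16 to 1.15 (Hoxc11), -0.031 to 0.34 (Hoxd4) and -8.02 to 2.24 (Hoxd11). The causes were not tested. Without a filter Col1a1, Igf2 and Adcyap1 had adjusted p of 0.0552, 0.0503 and 0.0608. With 3 libraries a group, depths of 15518403 to 26151928 counts limit the genes with few counts, T cell genes among them.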

Other observations

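Several genes outside the lists, chosen after their values were seen, also differed between the groups. Siglec1, the sialic acid receptor of macrophages, was at 19.1, 30.6 and 13.5 CPM in SCI and 0.155, 0.125 and 0.308 CPM in non-injured cord (6.70, SE 0.83), and Ms4a7, a membrane protein of macrophages, at 19, 20.3 and 12.8 CPM in SCI and 0.271, 0.0625 and 0.308 CPM in non-injured cord (6.22, SE 0.92). Mpeg1, the pore protein of phagocytes, was at 641, 809 and 580.3 CPM in SCI and 32.4, 23.3 and 37 CPM in non-injured cord (4.45, SE 0.49). None of the 3 overlapped between groups. The chains of complement C1q, C1qa, C1qb and C1qc, rose by 3.63, 3.43 and 3.63 (SE 0.39, 0.39 and 0.41), and Serping1, which inhibits the C1 enzyme, was at 143, 142 and 105 CPM in SCI and 5.06, 11.7 and 9.49 CPM in non-injured cord (3.91, SE 0.63). Lbp, which binds bacterial lipopolysaccharide, was at 52.3, 36 and 23.6 CPM in SCI and 0.541, 1.12 and 1.69 CPM in non-injured cord (5.09, SE 1.02), and the protease inhibitor A2m at 503, 758 and 656 CPM in SCI and 59.4, 59.3 and 88.8 CPM in non-injured cord (3.21, SE 0.35).

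Among falls outside the lists, Cdkn1c, an inhibitor of the cell cycle, was at 11.9, 9.88 and 14.6 CPM in SCI and 25.2, 22.4 and 70.9 CPM in non-injured cord (-1.70, SE 0.46), and Pcp4, a regulator of calmodulin in neurons, at 9.8, 7.52 and 6.41 CPM in SCI and 17.2, 21.1 and 23.2 CPM in non-injured cord (-1.37, SE 0.24). Of abundant long non-coding RNAs, Neat1 rose (0.88, SE 0.23, adjusted p = 0.0184 in edgeR), while Malat1 and Meg3 were not called (-0.71, SE 0.25 and -0.47, SE 0.27).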
